A study of Mus musculus with 20 samples.

Results

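RNA sequencing counts of 10 circadian clock genes (Arntl, Clock, Per1, Per2, Per3, Cry1, Cry2, Nr1d1, Nr1d2 and Dbp) were taken from 2 gene tables, 1 of hearts with 47069 genes and 1 of skeletal muscle with 53801 genes. Members were the rows whose Ensembl ID carries 1 of the 10 symbols in the GENCODE annotation of GRCm38, and all 10 were found among the 46649 genes held by both tables. The questions were whether the clock genes differed between Taz-KD and WT in each tissue, and how they varied together between libraries.

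The mammalian circadian clock is a feedback loop of transcription that runs in most cells, heart and skeletal muscle included. BMAL1 (the protein of Arntl) and CLOCK bind E-boxes and switch on the Per and Cry genes, whose proteins return to the nucleus and inhibit BMAL1 and CLOCK. They also switch on Nr1d1 and Nr1d2, whose proteins REV-ERB alpha and beta repress Arntl. Dbp, also driven through E-boxes, encodes an activator of the PAR bZIP family that acts on D-boxes and carries the rhythm to output genes. In a mouse tissue, Arntl RNA therefore peaks at about the opposite time of day from Nr1d1 and Dbp. A single sample taken at 1 time mixes the level and the phase of the loop and cannot separate them.

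Taz-KD mice (ROSA26H1/tetO-shRNA:TAZ) are a model of Barth syndrome and carry a transgene whose hairpin RNA against Taz, the gene of the cardiolipin transacylase tafazzin, is induced by doxycycline. The WT mice were C57BL/6N without the transgene, and both genotypes were fed chow with 625 mg/kg doxycycline up to the age of 20 weeks, so the transgene and the loss of Taz cannot be told apart. There were 5 Taz-KD and 5 WT hearts and, from other mice, 5 Taz-KD and 5 WT femur muscles, with 1 library per mouse. The hour at which tissue was taken, the light schedule and whether these mice were fed or fasted were stated in none of the sources used here. For the clock genes and their outputs, a genotype difference in level, in phase or in hour of collection can therefore not be told apart. The words rose and fell below describe the measured RNA only.

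The heart libraries held 30248445 to 35301909 counts in Taz-KD and 26963288 to 30090918 counts in WT, so that every Taz-KD heart was sequenced more deeply than every WT heart. The muscle libraries held 46985694 to 74361382 counts in Taz-KD and 36429399 to 61100247 counts in WT. CPM stands for counts per unit of library size, with sizes corrected by edgeR's TMM factors for composition, and values are listed by animal number. The order is R1793, R1796, R1797, R1798 and R2 for Taz-KD hearts, and R1791, R1792, R1795, R1800 and R3 for WT hearts. It is A34, A39, A52, A56 and A58 for Taz-KD muscles, and A33, A40, A51, A55 and A57 for WT muscles. Taz measured 11.1, 12.9, 11.6, 11.02 and 11.7 CPM in Taz-KD hearts, against 36.0, 39.2, 39.1, 37.8 and 36.9 CPM in WT hearts. It measured 12.7, 12.8, 13.4, 12.9 and 15.2 CPM in Taz-KD muscles, against 45.9, 52.6, 51.8, 54.8 and 53.2 CPM in WT muscles. Every Taz-KD library lay below every WT library in both tissues, so the knockdown matched the labels. Heart libraries held cardiomyocyte markers (Myh6, Tnnt2, Tnni3, Actn2, Ryr2 and Nppa summed to 33061 to 46345 CPM in Taz-KD and 33214 to 44912 CPM in WT), and muscle libraries held fibre markers (Myh4, Myh2, Acta1, Ckm, Actn3 and Mylpf summed to 102721 to 167697 CPM in Taz-KD and 47856 to 157842 CPM in WT). In such bulk samples, fewer cells of a type and less RNA per cell cannot be told apart.

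The loop acts through short DNA elements in the promoters of its own genes. RefSeq start sites of GRCm38.p6 were available for 9 of the 10 members (all but Per2), and the 250 bases before each start site were searched on both strands for the E-box CACGTG, the E-prime-box CACGTT, the D-boxes TTATGTAA and TTACGTAA, the ROR elements TAGGTCA and TGGGTCA to which REV-ERB binds, and the cAMP response element TGACGTCA. The following stretches are shown because they carry the E-boxes and D-boxes by which the members were grouped, and the capitals mark those letters, read 5′ to 3′ along the strand of the gene. An E-prime-box on the opposite strand reads AACGTG.
Per1: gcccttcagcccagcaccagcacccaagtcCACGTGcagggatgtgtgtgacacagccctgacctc
Cry1: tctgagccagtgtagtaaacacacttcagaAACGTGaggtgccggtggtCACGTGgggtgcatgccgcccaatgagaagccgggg
Cry2: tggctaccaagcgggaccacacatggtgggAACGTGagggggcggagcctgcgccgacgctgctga
Nr1d1: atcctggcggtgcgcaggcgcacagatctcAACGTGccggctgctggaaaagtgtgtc
Per3: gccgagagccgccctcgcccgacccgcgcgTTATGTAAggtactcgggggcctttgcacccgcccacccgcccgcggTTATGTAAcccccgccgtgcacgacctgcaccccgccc
The Per1 stretch (chr11:69098753-69098818, plus strand) holds an E-box that begins 166 bases before a start site inside the gene, and GENCODE places it in an intron of Per1. The Cry1 stretch (chr10:85185079-85185163, minus strand) holds an E-prime-box at 79 and an E-box at 60 bases before the start. A single E-prime-box lies at 166 bases before the start of Cry2 (chr2:92434200-92434265, minus strand) and at 28 bases before the start of Nr1d1 (chr11:98775378-98775435, minus strand), and no annotated gene covers the Cry1, Cry2 and Nr1d1 stretches. Per3 (chr4:151044786-151044900, minus strand) was the 1 of the 9 with D-boxes, at 205 and 158 bases before its start, in a stretch that also lies in an intron of Camta1 on the same strand. Of all 27025 genes with a start site in the table, 6.86% held the E-box, 4.50% the E-prime-box and 0.977% the D-box TTATGTAA in this window. None of these 9 members held TTACGTAA, a ROR element or the full cAMP response element there, which says only that these letters are not in the window.

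In the heart, levels per kilobase of exon spanned a wide range. Dbp (29.3 to 53.0 CPM per kilobase in Taz-KD and 47.7 to 55.02 in WT), Nr1d2 (31.4 to 48.2 in Taz-KD and 39.1 to 51.6 in WT) and Nr1d1 (25.6 to 49.1 in Taz-KD and 31.2 to 62.6 in WT) were the highest, and their ranges overlapped. Per1 followed with 10.5 to 26.8 CPM per kilobase in Taz-KD and 24.8 to 30.2 in WT. Per3, Per2 and Cry2 came next and overlapped each other in Taz-KD, while Cry2 lay below both Per genes in WT. Clock and Cry1 followed, and Arntl was the lowest by far, with 0.117 to 0.391 CPM per kilobase in Taz-KD and 0.135 to 0.342 in WT. Arntl was read from 27 to 101 counts per heart. In muscle, Dbp, Per1, Nr1d2 and Nr1d1 were again the highest and Arntl the lowest, with means of 0.730 CPM per kilobase in Taz-KD and 0.739 in WT.

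In the heart, Per2 and Dbp fell in Taz-KD, to 0.677 and 0.725 times the WT level, and no member rose. All 10 members passed the filter on low counts. Of these, 2 (0 higher and 2 lower) passed edgeR's quasi-likelihood test at an adjusted p under 0.05, beside 24.6% of all 19486 genes tested (14.4% higher and 10.3% lower), so the share of called clock genes was near that of all genes. In no member did the libraries of the genotypes lie fully apart, beside 18.3% of all genes. At an unadjusted p under 0.05 there were 5 members (Per1, Per2, Per3 and Dbp with negative and Clock with positive fold changes). The share of all genes under that unadjusted cut was not counted, so nothing is read from this number. The median log2 fold change was -0.21 over the members and -0.02 over all genes. DESeq2 called 4 members, all lower (Per1, Per2, Per3 and Dbp), limma-voom called 2, and edgeR without a filter on low counts called 0. Over all heart genes, DESeq2 called 5348, limma-voom 4706 and edgeR with the filter 4803. The plot of CPM by heart shows the overlap of the genotypes in every gene.

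**Figure D1:**
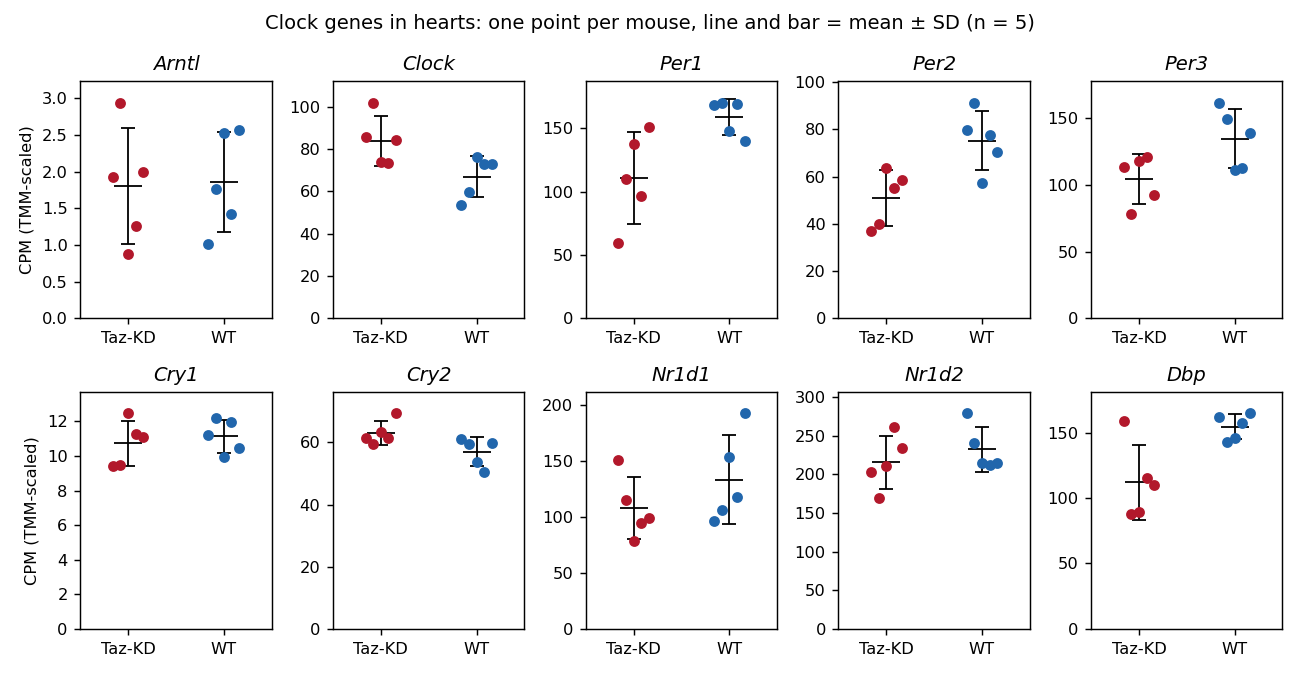
CPM (vertical axes from 0, a scale for each gene) of the 10 clock genes in hearts, with 1 point per mouse, 5 Taz-KD (left) and 5 WT (right), and lines and bars for the mean ± SD. Per2 and Dbp were lower in Taz-KD by edgeR, yet 1 Taz-KD heart reached the WT range of Dbp and 1 WT heart the Taz-KD range of Per2.

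Neither gene of the positive arm passed in the heart. Clock (ENSMUSG00000029238, chromosome 5 from 76209868 to 76304792 of GRCm38, minus strand) encodes the partner of BMAL1. It measured 85.6, 102, 73.8, 73.1 and 84.0 CPM in Taz-KD hearts, against 53.6, 59.5, 76.1, 72.8 and 72.7 CPM in WT hearts. Of the WT hearts, R1795 lay above the 2 lowest Taz-KD hearts and the other 4 lay below every Taz-KD heart (log2 fold change 0.32 with an SE of 0.11, 95% interval 0.07 to 0.57, edgeR adjusted p = 0.0576; exact two-sided permutation p = 0.0397, n = 5 each). Clock passed with the alternative of limma-voom with quality weights and when 1 of 3 hearts was left out (R1797 and R1798 of Taz-KD, R1795 of WT). Arntl (ENSMUSG00000055116, chromosome 7 from 113207465 to 113314126 of GRCm38, plus strand) measured 1.92, 2.94, 0.879, 1.27 and 1.99 CPM in Taz-KD hearts, against 1.01, 1.76, 2.52, 1.42 and 2.58 CPM in WT hearts. The values spread more than 2-fold within each genotype and the groups covered the same range, and the interval of the difference was wide (log2 fold change -0.05 with an SE of 0.33, 95% interval -0.76 to 0.67, edgeR adjusted p = 0.937). Npas2, whose protein can take the place of CLOCK, rose, with 3.91, 5.77, 5.68, 5.34 and 5.69 CPM in Taz-KD hearts, against 3.61, 3.38, 2.84, 4.51 and 3.51 CPM in WT hearts (log2 fold change 0.56 with an SE of 0.15, edgeR adjusted p = 0.0132). All Taz-KD hearts but 1 lay above every WT heart in Npas2.

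Among the Per and Cry genes, the Per genes had the larger differences. Per2 (ENSMUSG00000055866, chromosome 1 from 91415982 to 91459324 of GRCm38, minus strand) is a period gene on which clock and hormone signals converge. It measured 37.1, 40.1, 63.7, 55.4 and 58.7 CPM in Taz-KD hearts, against 79.6, 91.4, 57.3, 77.5 and 70.6 CPM in WT hearts. The WT heart R1795 was the single one inside the Taz-KD range, and the difference passed (log2 fold change -0.56 with an SE of 0.17, 95% interval -0.93 to -0.20, edgeR adjusted p = 0.0297; exact two-sided permutation p = 0.0238, n = 5 each). It no longer passed in edgeR when R1793 or R1796 of Taz-KD or R1791, R1792 or R1800 of WT was left out (edgeR adjusted p up to 0.0802), nor without a filter on low counts (adjusted p = 0.0890), and its log2 fold change then lay between -0.55 and -0.47. Over all alternatives the adjusted p ran from 0.00344 to 0.0890.

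Per1 (ENSMUSG00000020893, chromosome 11 from 69095217 to 69109960 of GRCm38, plus strand) is a period gene that also answers acutely to glucocorticoids and cAMP. It measured 59.2, 109.8, 138, 96.4 and 151 CPM in Taz-KD hearts, against 169, 170.3, 148, 169 and 139.7 CPM in WT hearts. Its Taz-KD hearts spread widely, with R1793 lowest and R2 inside the WT range, while the WT hearts lay close together (SD of log2 CPM 0.53 in Taz-KD and 0.13 in WT). Per1 did not pass (log2 fold change -0.52 with an SE of 0.21, 95% interval -0.99 to -0.05, edgeR adjusted p = 0.0992; exact two-sided permutation p = 0.0317, n = 5 each). It passed with DESeq2 (adjusted p = 0.0295) and without the Taz-KD heart R2 (edgeR adjusted p = 0.0434). Per3 (ENSMUSG00000028957, chromosome 4 from 151003652 to 151044665 of GRCm38, minus strand) is the period gene whose loss leaves the loop running in mice. It measured 113, 77.9, 118, 121 and 92.8 CPM in Taz-KD hearts, against 162, 149, 111, 113 and 139 CPM in WT hearts. Of the WT hearts, 2 lay within the Taz-KD range and 3 above it (log2 fold change -0.36 with an SE of 0.14, 95% interval -0.67 to -0.06, edgeR adjusted p = 0.0812; DESeq2 adjusted p = 0.0374). The exons of Per3 are not shared with another gene, although it lies within Camta1.

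The cryptochromes, which close the loop with the Per proteins, differed little. Cry1 (ENSMUSG00000020038, chromosome 10 from 85131700 to 85185064 of GRCm38, minus strand) averaged 10.7 ± 1.30 CPM in Taz-KD and 11.1 ± 0.956 CPM in WT (SD, n = 5 each), and its interval spanned -0.26 to 0.16 on the log2 scale (adjusted p = 0.744, edgeR). Cry2 (ENSMUSG00000068742, chromosome 2 from 92403646 to 92434043 of GRCm38, minus strand) measured 61.4, 59.4, 63.3, 61.3 and 69.3 CPM in Taz-KD hearts, against 61.2, 59.5, 53.8, 50.3 and 59.8 CPM in WT hearts. Of the WT hearts, 3 lay within the Taz-KD range and 2 below it, and the positive difference did not pass (log2 fold change 0.15 with an SE of 0.07, 95% interval -0.00 to 0.29, edgeR adjusted p = 0.139; exact two-sided permutation p = 0.0476, n = 5 each). The members with an E-box or E-prime-box in the window had log2 fold changes of -0.52 (Per1), -0.31 (Nr1d1), -0.05 (Cry1) and 0.15 (Cry2) in the heart. None of them passed, so neither a shared nor an opposed direction is shown. Per2 had no window and Dbp held neither element in its window, so the called members are not among them.

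The REV-ERB genes, which repress Arntl, did not pass either. Nr1d1 (ENSMUSG00000020889, chromosome 11 from 98767932 to 98775333 of GRCm38, minus strand) measured 151, 116, 78.7, 94.6 and 99.3 CPM in Taz-KD hearts, against 96.1, 106, 153, 118 and 193 CPM in WT hearts. Both groups spread about 2-fold and overlapped over most of the range (log2 fold change -0.31 with an SE of 0.22, 95% interval -0.80 to 0.19, edgeR adjusted p = 0.359). Nr1d1 shares 263 exon bases (8.55%) with Thra on the other strand, which averaged 101 ± 6.34 CPM in Taz-KD and 90.6 ± 11.1 CPM in WT hearts (SD, n = 5 each). The strand setting of the counting is not given in the sources used here, so the counts of such pairs are uncertain. Nr1d2 (ENSMUSG00000021775, chromosome 14 from 18204054 to 18239127 of GRCm38, minus strand) averaged 216 ± 34.2 CPM in Taz-KD and 232 ± 28.6 CPM in WT hearts (SD, n = 5 each; log2 fold change -0.11 with an SE of 0.11, 95% interval -0.35 to 0.14, edgeR adjusted p = 0.538).

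Dbp (ENSMUSG00000059824, chromosome 7 from 45705088 to 45710203 of GRCm38, plus strand) is an output gene of the loop. It measured 159, 87.6, 88.9, 115 and 109.6 CPM in Taz-KD hearts, against 162, 143, 146, 157 and 165 CPM in WT hearts. Of the Taz-KD hearts, 4 lay below every WT heart, and R1793 lay inside the WT range (log2 fold change -0.46 with an SE of 0.14, 95% interval -0.78 to -0.15, edgeR adjusted p = 0.0345; exact two-sided permutation p = 0.0317, n = 5 each). The call was lost in edgeR when any heart other than R1793 was left out, and the log2 fold change then ran from -0.48 to -0.39 with adjusted p from 0.0529 to 0.0733. Without R1793 it was -0.62 (adjusted p = 0.000644), the lowest adjusted p of all alternatives, and the highest was 0.133 in one fit of all 20 libraries. Dbp shares 539 exon bases (18.0%) with Sphk2 on the other strand, which averaged 56.6 ± 9.07 CPM in Taz-KD and 67.3 ± 2.82 CPM in WT hearts (SD, n = 5 each; log2 fold change -0.25, adjusted p = 0.0757, edgeR).

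Tef and Hlf, the other genes of the PAR bZIP family, fell, and Nfil3, which encodes the repressor E4BP4 that competes for the same D-boxes, rose, so that all 3 genes of that list passed (2 lower and 1 higher, median log2 fold change -0.45). Over all heart genes 24.6% passed and 18.3% lay fully apart, and a list of 3 genes is short. Tef measured 221, 173, 224, 235 and 213 CPM in Taz-KD hearts, against 336, 317, 254, 272 and 271 CPM in WT hearts (log2 fold change -0.45 with an SE of 0.10, edgeR adjusted p = 0.00557), and every Taz-KD heart lay below every WT heart. Hlf measured 47.1, 28.8, 48.3, 60.2 and 41.2 CPM in Taz-KD hearts, against 98.2, 73.4, 57.4, 69.8 and 74.3 CPM in WT hearts (log2 fold change -0.73 with an SE of 0.19, edgeR adjusted p = 0.0172), with 1 Taz-KD heart, R1798, inside the WT range. Nfil3 measured 5.28, 9.32, 7.16, 5.74 and 8.18 CPM in Taz-KD hearts, against 4.17, 4.45, 3.68, 5.27 and 3.73 CPM in WT hearts (log2 fold change 0.74 with an SE of 0.16, edgeR adjusted p = 0.00581), and every Taz-KD heart lay above every WT heart, by a small margin. Per3, which has D-boxes in its window, had a negative difference that did not pass.

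**Figure D2:**
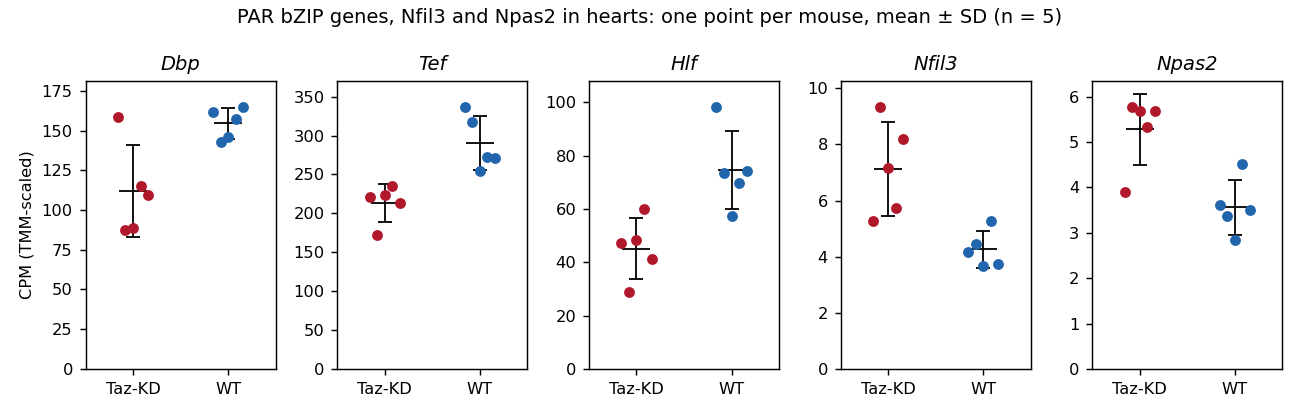
CPM (vertical axes from 0, a scale for each gene) of Dbp, Tef, Hlf, Nfil3 and Npas2 in hearts, with 1 point per mouse, 5 Taz-KD (left) and 5 WT (right), and lines and bars for the mean ± SD. Tef lay fully lower and Nfil3 fully higher in Taz-KD, while Dbp, Hlf and Npas2 had 1 Taz-KD heart in the WT range.

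Other genes around the loop were counted from lists, each to be read beside the 24.6% of all heart genes called (14.4% higher and 10.3% lower). Of 15 genes for kinases, ubiquitin ligases and other factors that act on or with clock proteins, 5 rose and 0 fell in Taz-KD hearts (median log2 fold change 0.10, against -0.02 over all genes). Gsk3b, a kinase that phosphorylates several clock proteins, averaged 213 ± 12.1 CPM in Taz-KD and 159.9 ± 3.93 CPM in WT (SD, n = 5 each; log2 fold change 0.42 with an SE of 0.05, edgeR adjusted p = 1.63e-04). Csnk1a1, a casein kinase, averaged 345 ± 17.8 CPM in Taz-KD and 258 ± 13.2 CPM in WT (SD, n = 5 each; log2 fold change 0.42 with an SE of 0.06, edgeR adjusted p = 3.09e-04). Prkaa2, the AMPK subunit that is abundant in heart, and Fbxl21, a ligase subunit for cryptochromes, rose by log2 fold changes of 0.33 and 1.07 (edgeR adjusted p = 0.00438 and 0.00511). Fbxl21 was scarce, with 2.11, 1.52, 1.48, 1.17 and 1.03 CPM in Taz-KD hearts, against 0.639, 0.930, 0.525, 0.659 and 0.708 CPM in WT hearts. The fifth gene that rose was Nono (log2 fold change 0.21 with an SE of 0.05, edgeR adjusted p = 0.0102). Each of the 5 was higher in every Taz-KD heart than in every WT heart, and 18.3% of all genes lay apart in this way. The other casein kinases Csnk1d and Csnk1e did not pass (log2 fold changes 0.12 and -0.14, edgeR adjusted p = 0.139 and 0.232).

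A list of E-box repressors and other genes linked to the loop held Bhlhe40, Bhlhe41, Ciart, Timeless and Tipin. Of these 5, 0 passed in edgeR (median log2 fold change -0.24). Bhlhe40 had the lowest adjusted p (log2 fold change -0.46 with an SE of 0.17, edgeR adjusted p = 0.0664). Of 18 genes known as clock-controlled outputs, 1 rose and 4 fell (median log2 fold change -0.12), a share close to the 24.6% of all genes. Cdkn1a, which encodes the cell cycle inhibitor p21, measured 56.6, 76.2, 55.8, 40.4 and 65.0 CPM in Taz-KD hearts, against 6.65, 14.5, 8.12, 21.2 and 10.4 CPM in WT hearts (log2 fold change 2.27 with an SE of 0.31, edgeR adjusted p = 7.02e-04), with every Taz-KD heart above every WT heart. Dgat2, the last enzyme of triglyceride synthesis, and Tcap, the titin cap protein, fell. Dgat2 averaged 212 ± 26.1 CPM in Taz-KD and 287 ± 33.9 CPM in WT, and Tcap averaged 462 ± 61.3 CPM in Taz-KD and 622 ± 70.5 CPM in WT (SD, n = 5 each). Their log2 fold changes were -0.43 and -0.43 (edgeR adjusted p = 0.00716 and 0.00928). Coq10b, a protein of coenzyme Q function, fell by 0.36 on the log2 scale (edgeR adjusted p = 0.0106), and the remaining one that fell was Kcnip2, a potassium channel subunit (log2 fold change -0.38 with an SE of 0.10, edgeR adjusted p = 0.0125).

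Signals that reset the clock were counted in the same way. Of 12 glucocorticoid receptor targets, 1 rose and 1 fell, a share below the 24.6% of all genes, with a median log2 fold change of -0.40. The metallothionein gene Mt2 measured 85.1, 60.5, 125, 68.3 and 93.7 CPM in Taz-KD hearts, against 51.4, 56.8, 38.3, 27.7 and 37.9 CPM in WT hearts (log2 fold change 1.03 with an SE of 0.23, edgeR adjusted p = 0.0102), and Errfi1, an inhibitor of the EGF receptor, averaged 17.2 ± 6.42 CPM in Taz-KD and 28.1 ± 3.53 CPM in WT (SD, n = 5 each; log2 fold change -0.71 with an SE of 0.23, edgeR adjusted p = 0.0477). Of 11 immediate early genes (median log2 fold change -0.17), 1 rose and 1 fell, likewise below that share, namely Atf3 (log2 fold change 1.30 with an SE of 0.28, edgeR adjusted p = 0.00590) and Jun (log2 fold change -0.45 with an SE of 0.12, edgeR adjusted p = 0.0172). A list of 10 genes held heat shock genes and the cold-inducible genes Rbm3 and Cirbp (median log2 fold change 0.30). Of these 10, 4 rose and 1 fell, beside 14.4% higher and 10.3% lower over all genes. Their summed level was 1592 to 2027 CPM in Taz-KD and 994 to 1172 CPM in WT. Hsp90aa1, Hspe1, Hspa8 and Hspb1, which encode chaperones, were higher in each Taz-KD heart than in each WT heart (log2 fold changes 1.25, 0.96, 0.55 and 1.07), and Dnajb1 fell (log2 fold change -0.27 with an SE of 0.08, edgeR adjusted p = 0.0328). The rest did not pass (log2 fold changes 0.43 for Hsph1, 0.17 for Rbm3, -0.02 for Cirbp, -0.44 for Hspa1a and -0.39 for Hspa1b).

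Other properties also moved with the genotype in hearts. Besides the depth of sequencing, 2 of 4 endothelial markers (summed 529 to 642 CPM in Taz-KD and 622 to 780 CPM in WT) and 2 of 3 red cell markers (263 to 416 CPM in Taz-KD and 351 to 682 CPM in WT) were lower in Taz-KD. Beside these stand 10.3% of all heart genes called lower, the lists are short, and both summed ranges overlapped between the genotypes. Of the other markers, 0 of 6 cardiomyocyte, 0 of 4 fibroblast, 0 of 4 macrophage, 0 of 4 adipocyte and 0 of 1 brain markers passed. Of 4 genes of the skeletal muscle fibre list tested, 1 rose, Acta1 (log2 fold change 1.82 with an SE of 0.57, edgeR adjusted p = 0.0464), beside 14.4% of all heart genes. In hearts these genes are not read as a sign of skeletal muscle tissue. The summed level of the fibre list was 1562 to 2413 CPM in Taz-KD and 1007 to 1436 CPM in WT hearts, fully apart. With all libraries thinned to the smallest total, Per2 and Dbp were still the members called (2). Whether the differences of Per2, Dbp, Tef and Hlf go with those of the red cell, endothelial and fibre lists was not tested. Within the hearts R1791 to R1800, leaving out R2 and R3, whose animal numbers stand apart, 1 member was called, Per2 (log2 fold change -0.64, edgeR adjusted p = 0.0486).

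In skeletal muscle, no clock gene was called. All 10 members passed the filter, and 0 passed edgeR's test (0 at an unadjusted p under 0.05), where 0.0186% of all 16145 genes passed (0.0124% higher and 0.00619% lower). DESeq2 and limma-voom also called 0 members, and with each 0 had an unadjusted p under 0.05. In no member did the genotypes lie fully apart, beside 2.14% of all genes. The median log2 fold change was 0.04 over the members and -0.02 over all genes. Signs depended on the scaling, since 8 members had positive fold changes with TMM factors and 2 with library sizes only, which moved the median of all genes from -0.02 to -0.16. The plot of CPM by muscle shows groups that cover the same ranges.

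**Figure D3:**
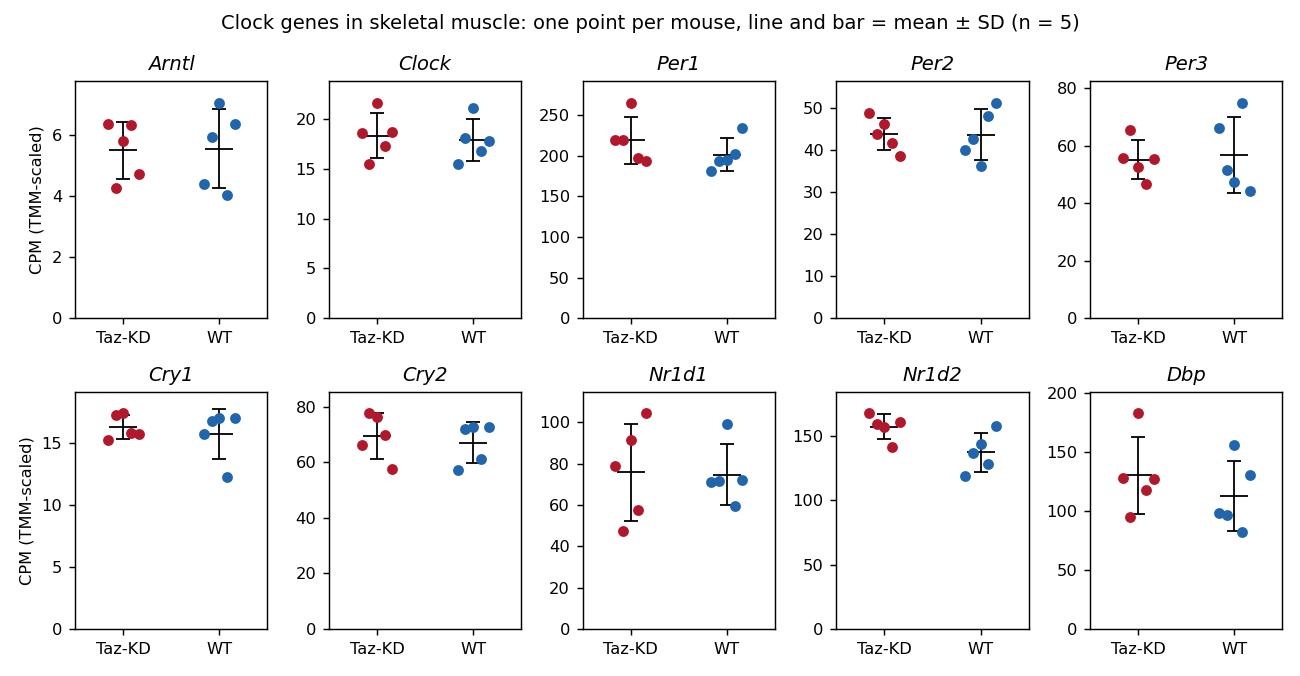
CPM (vertical axes from 0, a scale for each gene) of the 10 clock genes in skeletal muscle, with 1 point per mouse, 5 Taz-KD (left) and 5 WT (right), and lines and bars for the mean ± SD. The genotypes overlap in each gene, and Nr1d2 comes nearest to a separation.

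Nr1d2 had the smallest p of the members in muscle. It measured 168, 159, 157, 141 and 161 CPM in Taz-KD muscles, against 119, 137, 144, 128 and 158 CPM in WT muscles. Of the Taz-KD muscles, 3 lay above every WT muscle (log2 fold change 0.20 with an SE of 0.10, 95% interval -0.03 to 0.42, edgeR adjusted p = 0.381; exact two-sided permutation p = 0.0556, n = 5 each). Dbp measured 128, 94.8, 183, 118 and 127 CPM in Taz-KD muscles, against 98.7, 97.0, 156, 81.9 and 131 CPM in WT muscles, and the muscles A52 of Taz-KD and A51 of WT were the highest of their groups (log2 fold change 0.21 with an SE of 0.21, 95% interval -0.25 to 0.67, edgeR adjusted p = 0.605). Per2, called in heart, averaged 43.7 ± 3.90 CPM in Taz-KD and 43.5 ± 6.08 CPM in WT muscles (SD, n = 5 each; log2 fold change 0.01 with an SE of 0.11, 95% interval -0.24 to 0.25, edgeR adjusted p = 0.982).

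The remaining members had intervals that reached no further than -0.45 to 0.50, those of Nr1d1. Nr1d1 measured 78.7, 47.3, 91.4, 57.5 and 104 CPM in Taz-KD muscles, against 71.0, 71.6, 99.4, 59.5 and 72.0 CPM in WT muscles, and the Taz-KD muscles held both the lowest and the highest value. Arntl measured 6.35, 4.27, 5.81, 6.32 and 4.73 CPM in Taz-KD muscles, against 4.39, 5.94, 7.06, 4.02 and 6.37 CPM in WT muscles, and the groups overlapped fully. Clock, Per1, Per3, Cry1 and Cry2 had log2 fold changes between -0.04 and 0.12 and adjusted p from 0.604 to 0.893 (edgeR). Of the genes around the loop (PAR bZIP genes, the list with the E-box repressors, kinases and ligases, outputs, glucocorticoid targets, immediate early genes, and heat shock and cold-inducible genes), 0 passed in muscle by edgeR. Npas2, which rose in hearts, was scarce in muscle and did not pass. It measured 0.157, 0.241, 0.287, 0.104 and 0.314 CPM in Taz-KD muscles, against 0.453, 0.514, 0.497, 0.585 and 0.336 CPM in WT muscles. Every Taz-KD muscle lay below every WT muscle in Npas2, beside 2.14% of all genes that lay apart. Muscle samples differed in what they held, with adipocyte markers summing to 10.0 to 215 CPM in Taz-KD and 47.8 to 2114 CPM in WT, and the part of this in the spread was not tested.

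**Figure D4:**
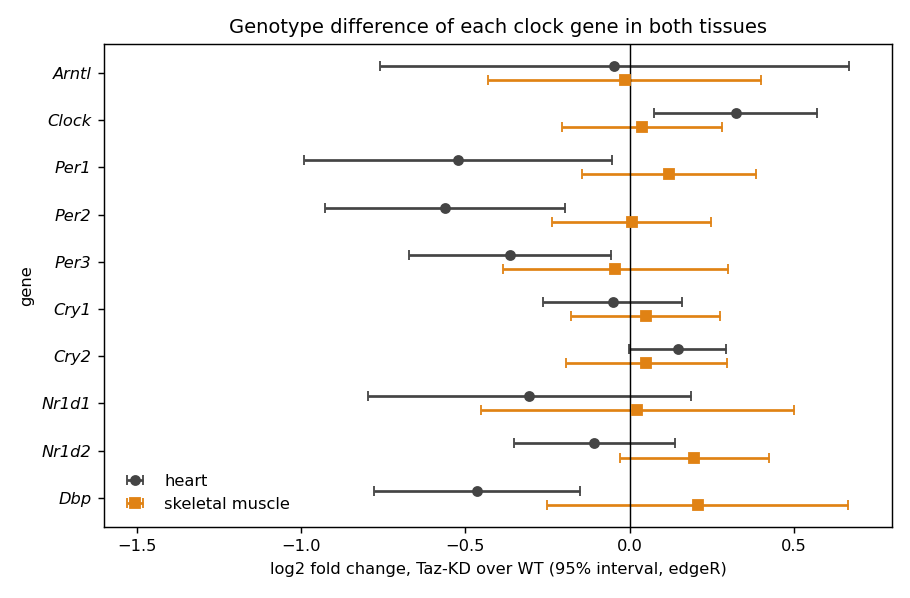
Log2 fold changes (horizontal axis, Taz-KD over WT, edgeR) of the 10 clock genes in heart (circles) and skeletal muscle (squares), with 95% intervals. In heart the intervals of Clock, Per1, Per2, Per3 and Dbp leave out 0, and in muscle every interval holds it.

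Whether the genotype effect differed between the tissues was tested as an interaction in one fit of all 20 libraries, for 20612 genes held by both tables. Of the 10 members, 0 passed in edgeR, beside 4.62% of all genes, and limma-voom also called 0. At an unadjusted p under 0.05 there were 3 members in edgeR, a cut at which the share of all genes was not counted. The differences of the log2 fold changes, heart minus muscle, were -0.63 (SE 0.22, adjusted p = 0.108) for Per2 and -0.71 (SE 0.26, adjusted p = 0.131) for Per1. For Dbp the value was -0.73 (SE 0.28, adjusted p = 0.145), all by edgeR. So the calls of Per2 and Dbp in heart and their absence in muscle are not shown to be a difference between the tissues.

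The spread between libraries of a genotype differed much among the members. Placed among the dispersions of all genes tested in heart (a percentile, where 100 is the most variable), Arntl stood at 94.8, Nr1d1 at 84.2, Per1 at 82.0 and Cry2 at 12.9, with a median of 60.1 over the members. In muscle the median was 17.6, with Nr1d1, Dbp and Arntl near the middle of all genes (53.0, 50.9 and 49.9). A percentile ranks a gene within its own tissue and does not compare the tissues. The dispersion itself was 0.060 in muscle and 0.027 in heart for Dbp. It was 0.064 in muscle and 0.060 in heart for Nr1d1, and 0.059 in muscle and 0.123 in heart for Arntl. Dbp varied more among Taz-KD hearts than among WT hearts (SD of log2 CPM 0.35 in Taz-KD and 0.09 in WT), a difference that was not tested.

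How the members varied together between libraries bears on the phase of the loop. Libraries taken at other phases would tend to move Arntl against Nr1d1 and Dbp, whose RNA peaks at about the opposite time of day. The log2(CPM + 0.5) of each member was set against that of Arntl over the 10 libraries of a tissue, after subtracting the mean of each genotype, and 18 relations were tested (9 per tissue) with exact permutation within genotypes and Benjamini-Hochberg adjustment. In hearts 6 of 9 relations were negative and 0 passed (3 at an unadjusted p under 0.05). Clock had the largest r (r = 0.84, exact permutation p = 0.00854, adjusted p = 0.0769, and rho = 0.81, exact permutation p = 0.0110, adjusted p = 0.0658, n = 10). Without the 2 hearts farthest from the median of Arntl (R1797 of Taz-KD and R1791 of WT) r was 0.75. The r was negative for Cry1 (r = -0.77, exact permutation p = 0.0221, adjusted p = 0.0994, and rho = -0.68, exact permutation p = 0.0534, adjusted p = 0.160, n = 10) and for Per3 (r = -0.68, exact permutation p = 0.0522, adjusted p = 0.131, and rho = -0.79, exact permutation p = 0.0155, adjusted p = 0.0697, n = 10). It was also negative for Per2 (r = -0.67, exact permutation p = 0.0582, adjusted p = 0.131, and rho = -0.61, exact permutation p = 0.0971, adjusted p = 0.199, n = 10) and Nr1d2 (r = -0.65, exact permutation p = 0.0656, adjusted p = 0.131, and rho = -0.61, exact permutation p = 0.0835, adjusted p = 0.199, n = 10). Nr1d1, the repressor of Arntl, had a positive r (r = 0.77, exact permutation p = 0.0181, adjusted p = 0.0994, and rho = 0.83, exact permutation p = 0.00681, adjusted p = 0.0658, n = 10), and without the same 2 hearts r was 0.60. For Dbp the r lay near 0 (r = 0.01, exact permutation p = 0.982, adjusted p = 0.982, and rho = -0.07, exact permutation p = 0.883, adjusted p = 0.941, n = 10).

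In muscle, 1 of 9 relations passed and 2 were negative. Muscles high in Arntl were low in Per3 (r = -0.91, exact permutation p = 0.00194, adjusted p = 0.0350, and rho = -0.87, exact permutation p = 0.00757, adjusted p = 0.0658, n = 10), and without the 2 muscles farthest from the median of Arntl (A55 of WT and A39 of Taz-KD) r was -0.81. This relation passed in Pearson's test only, and its adjusted p ranged from 0.0187 to 0.148 over 15 alternatives. It was lost in 11 of them, among these each muscle left out in turn except A34. Its r stayed between -0.95 and -0.81. Dbp had a positive r that did not pass (r = 0.72, exact permutation p = 0.0397, adjusted p = 0.131, and rho = 0.71, exact permutation p = 0.0370, adjusted p = 0.133, n = 10), and r was 0.48 without A55 and A39. Clock likewise did not pass (r = 0.67, exact permutation p = 0.0473, adjusted p = 0.131, and rho = 0.59, exact permutation p = 0.0994, adjusted p = 0.199, n = 10). The other relations with Arntl in muscle had r from -0.03 for Per2 to 0.51 for Cry1 and rho from -0.01 for Per2 to 0.60 for Nr1d2, with an adjusted p of at least 0.213 in exact permutation tests (n = 10).

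**Figure D5:**
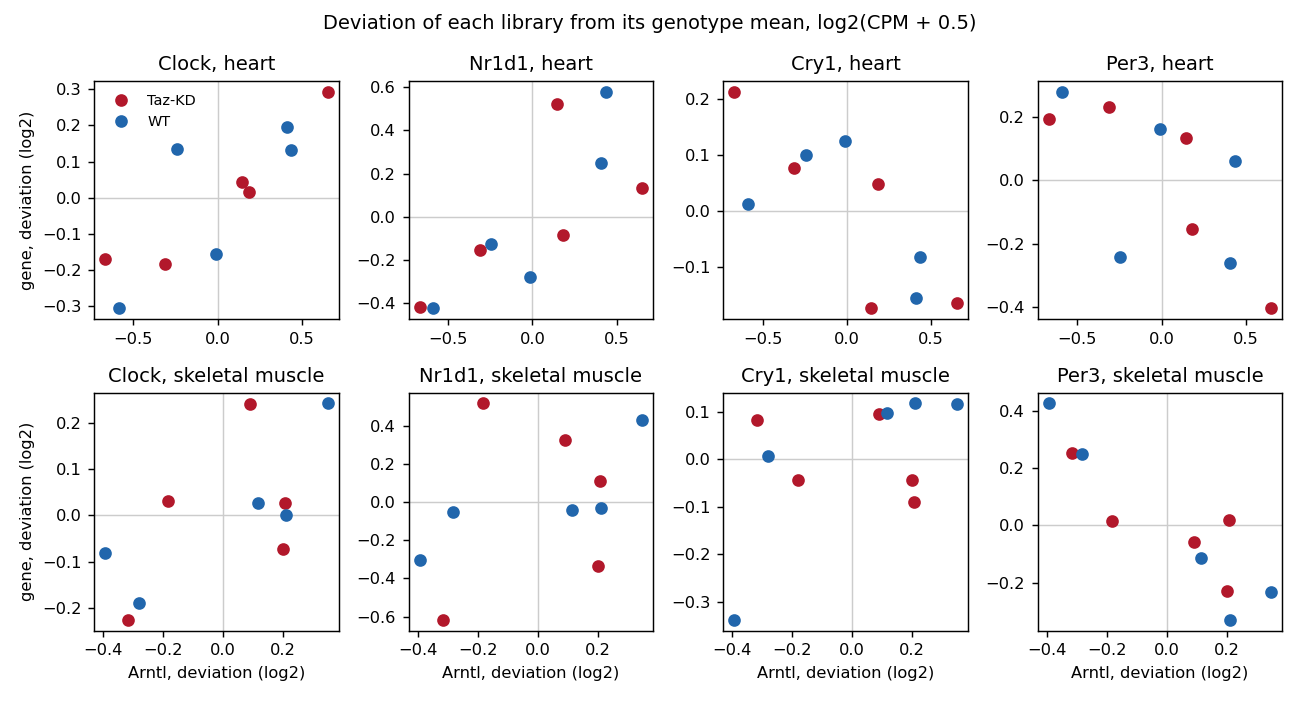
Deviations from the genotype mean in log2(CPM + 0.5), Arntl on the horizontal and Clock, Nr1d1, Cry1 or Per3 on the vertical axis, in hearts (top) and skeletal muscle (bottom), with 1 point per library (Taz-KD red, WT blue). The r with Clock was 0.84 in hearts and 0.67 in muscle, and that with Per3 was -0.68 in hearts and -0.91 in muscle, where it passed.

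Among the 45 pairs of members, described here without a test, 5 pairs in hearts and 2 in muscle had an r above 0.8 in size. In hearts the largest r was that of Per2 and Cry1 (0.95), and that of Arntl and Clock was 0.84. Clock ran against Per3 (r = -0.89) and Nr1d2 (r = -0.87), and Cry1 against Nr1d1 (r = -0.81). In muscle the r of Clock and Dbp was 0.87. Dbp in hearts ran against Per1 (r = -0.76), and the Taz-KD heart R1793 was the highest of its group in Dbp and Nr1d1 and the lowest in Per1 and Per2.

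The genes most like Arntl and Dbp were listed by the r of genotype-centred log2(CPM + 0.5) over the 10 libraries of a tissue, as a description, for the 16261 genes in heart and 12999 genes in muscle whose mean reached 1 CPM. In hearts the highest r with Arntl were those of Alg1 (0.95), Gm12346 (0.95), Snx21 (0.93), Rhbdd3 (0.93) and Zcchc3 (0.93), and Clock stood at rank 101. The lowest were Gm26720 (-0.96), Hdac4 (-0.95), Gm37048 (-0.94), Gm43483 (-0.93) and Eif2ak4 (-0.93). Nothing is read from these lists about shared function. In muscle the highest r with Arntl were Zranb3 (0.96), Cdk19 (0.96), Tmem94 (0.96), Itpr1 (0.96) and Lamc1 (0.95), and the lowest were Miip (-0.98), Clca3a1 (-0.97), Fbxo22 (-0.97), Srsf5 (-0.95) and Sesn1 (-0.95). For Dbp in hearts the highest were Gm18666 (0.97), Gm20631 (0.92), Trim13 (0.90), Ncapd2 (0.89) and Gm37510 (0.89), and the lowest Ythdf2 (-0.93), Cyren (-0.91), Sfswap (-0.90), Zbtb8a (-0.90) and Nufip1 (-0.88). In muscle the highest with Dbp were Scin (0.97), Wdsub1 (0.95), Fam83d (0.94), Uba2 (0.93) and Hlf (0.93), among them the PAR bZIP gene Hlf, and the lowest Tpm2 (-0.98), Guf1 (-0.95), Arpp21 (-0.95), 2310075C17Rik (-0.95) and Rhou (-0.95).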

How the data were processed

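RNA was isolated from frozen heart and femur muscle, depleted of ribosomal RNA and made into strand-marking libraries. Per the labels and the study's methods, the authors mapped paired reads of 150 bp with STAR to GRCm38 and counted them per gene with featureCounts 1.6.4. The deposited values are these raw counts, and the release of the annotation is not given in the sources used here. Symbols and positions came from GENCODE M21. Each tissue was fitted by genotype in edgeR 4.0.16 (R 4.3.3) after filterByExpr and TMM scaling, with robust quasi-likelihood tests and Benjamini-Hochberg adjustment over all genes (call at 0.05). Standard errors come from the F statistic. Where nothing else is said, p-values set the genotype difference against the spread between mice of a genotype, which edgeR estimates with information from all genes. Alternatives were DESeq2 1.42.0, limma-voom (limma 3.58.1), other scalings, filters and sample sets (animals of consecutive numbers, called runs, and each library left out in turn), and, chosen after seeing the data, voom with quality weights. Exact permutation tests of 5 against 5 libraries cannot go below p = 0.00794. Scripts were tested on simulated data.

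Named genes were every member, up to 4 called genes per list and tissue by smallest adjusted p, Taz, and the 5 genes with the highest and lowest r with Arntl or Dbp. Nono, Kcnip2, Dnajb1 and genes without a call were added after their values were seen. Members and lists were chosen with earlier results of these data known. The count of 1 list is not reported here.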

Additional observations from a re-analysis of the deposited data

Results flagged for a closer look

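Among 40 groups of 5 libraries (10 clock genes, 2 genotypes and 2 tissues), 1 value stood far from the others of its group. Cry1 measured 12.3 CPM in the WT muscle A55, against 15.7 to 17.0 CPM in the other 4 WT muscles, a gap of 0.728 of the range of the group. Chance flags about 1 in 20 groups. A55 also had the smallest total of the muscle libraries (36429399 counts). It lay outside the range of the other 4 WT muscles in further genes named above. Among these were Prkaa2 (70.1 CPM against 159.96 to 275), Csnk1a1 (138 against 205 to 258), Bhlhe40 (40.4 against 82.4 to 164) and Atf3 (29.2 against 3.76 to 9.89). In others, such as Gsk3b and Coq10b, A55 lay inside that range. Whether A55 differed as a whole was not tested.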

How the results depend on the processing

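All results are for Taz-KD against WT unless stated. In hearts, the number of clock genes called was 4 with DESeq2, 1 with library sizes only, 0 without a filter on low counts, 1 in one fit of all 20 libraries, 1 in hearts R1791 to R1800 alone and 0 to 2 when 1 heart was left out. The genes called in all were 5348 with DESeq2 and 2087 in the one fit, against 4803 in the main fit. Calls of Per2 were lost in 6 of 23 alternatives and of Dbp in 13 of 23. The log2 fold change of Arntl was 0.064 in R1791 to R1800 alone and -0.30 to 0.13 with 1 heart left out. In muscle, where no clock gene was called under any alternative, the genes called in all were 145 with DESeq2, 167 in the one fit, 1 in A33 to A40 alone, 1 in A51 to A58 alone and 3 to 5 with 1 muscle left out.

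Several signs changed in muscle. With library sizes only, which moved the median of all genes to -0.16, the log2 fold change was -0.090 for Clock, -0.013 for Per1, -0.13 for Per2, -0.078 for Cry1, -0.080 for Cry2 and -0.086 for Nr1d1. With limma-voom it was -0.0085 for Nr1d1. With quality weights, an alternative chosen after seeing the data, it was -0.035 for Clock, 0.085 for Per3, -0.041 for Cry1, -0.033 for Cry2 and -0.15 for Nr1d1. Upper-quartile factors gave -0.014 for Per2, a minimum of 10 counts in every library -0.0027 for Per2, and no filter 0.0028 for Arntl. The one fit gave 0.016 for Arntl and 0.0049 for Per3. Muscles A33 to A40 alone gave 0.042 for Arntl, 0.044 for Per3 and -0.17 for Nr1d1, and A51 to A58 alone -0.096 for Per2 and -0.017 for Cry2. With 1 muscle left out, the ranges were -0.11 to 0.086 for Arntl, -0.027 to 0.11 for Clock, -0.029 to 0.082 for Cry1, -0.0033 to 0.11 for Cry2, -0.12 to 0.15 for Nr1d1, -0.053 to 0.073 for Per2 and -0.12 to 0.075 for Per3. For the difference between tissues, leaving out 1 library gave -0.33 to 0.087 for Arntl, -0.033 to 0.12 for Cry2, and 607 to 2042 genes called. The cause was not tested.

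The number of relations with Arntl that passed in hearts was 1 with run means removed and 0 to 1 with 1 heart left out. In muscle it was 0 with upper-quartile factors, 0 without the 2 farthest libraries and 0 to 1 with 1 muscle left out. The r of Arntl and Dbp in hearts was -0.022 with a pseudocount of 2, -0.032 with upper-quartile factors, -0.031 with run means removed, -0.33 without the 2 farthest libraries and -0.34 to 0.38 with 1 heart left out. That of Arntl and Cry2 in hearts was 0.17 without the 2 farthest and -0.34 to 0.10 with 1 left out. In muscle, without the 2 farthest, r was 0.26 for Per2 and -0.080 for Nr1d1, and with 1 muscle left out that of Per2 ran from -0.25 to 0.38. No paired analysis was possible because the genotypes share no replicate numbers. Arntl rested on 27 to 101 counts per heart. Thinned to the smallest library, its log2 fold change was -0.20 (edgeR adjusted p = 0.712).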
